A study of Mus musculus with 8 samples.

Results

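Expression of 7 regulators of the primitive endoderm was followed, namely the transcription factors *Gata4*, *Gata6*, *Sox7*, *Sox17*, *Foxa2* and *Hnf4a* and the receptor *Pdgfra*. They were taken by name, as every probe that carried one of these gene names on the array, which gave 7 genes, 9 probes and 18 spots among 36406 gene names and 55681 probes. *Sox17* and *Foxa2* had 2 probes each. All 7 members were present.

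The samples were E14Tg2A.4 cells, a feeder-independent mouse embryonic stem (ES) cell line, so both conditions share 1 line. Of the samples, 4 were left untreated and 4 were collected after 72 h (3 days) with all-trans retinoic acid (RA), the ligand of the RAR nuclear receptors. Per the study's methods RA was added in medium without leukemia inhibitory factor (LIF), the cytokine that holds ES cells in self-renewal, so RA and the loss of LIF cannot be told apart here. Total RNA of each sample was labelled with Cy3 and hybridised to a 1-colour Agilent array, 4 arrays per condition, and the replicates are biological per the study's methods, which do not say what separated them, so p-values measure the spread between these 8 samples.

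The primitive endoderm is the extraembryonic layer that separates from the epiblast in the inner cell mass of the blastocyst and later forms the visceral and parietal endoderm of the yolk sac. FGF signalling through ERK favours GATA6 over NANOG in its precursors, and SOX17, GATA4, PDGFRA and SOX7 follow as the cells commit, whereas HNF4A belongs to the later visceral endoderm. Several of these genes have a second life elsewhere: *Gata4* and *Gata6* in the heart, *Foxa2* in the definitive endoderm and the floor plate, *Sox7* and *Sox17* in endothelium, *Pdgfra* in mesenchyme.

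Levels are log2 intensities of a probe minus the 75th percentile of its own array, so 0 is the intensity that the brightest quartile of spots exceeds and 1 unit is a 2-fold step. Levels of different probes are not comparable. A gene was called when limma gave an adjusted p (Benjamini-Hochberg over all 55681 probes) under 0.05 and a fold above 1.5, and a gene with several probes was represented by the brightest. On each array 56.7% to 62.7% of spots were well above background, the scanner software's own test, and no spot was saturated. Of the 12 pluripotency markers all 12 fell, and 9 of 10 RA response genes rose, which checks the labels. The median gene had a log2 fold change of -0.28 under this scaling, and 7196 probes were called higher and 12044 lower, 37.4% of calls being higher against 48.4% after quantile normalization, where the median was near 0 (-0.004).

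Of the 7 members 6 rose and 1, *Hnf4a*, was not called. The rises ran from 2.47-fold for *Gata4* to 32.8-fold for *Foxa2*. The median log2 fold change of the 7 was 2.82. Over all gene names 13.9% were called higher and 22.1% were called lower, whereas no member was called lower. All 4 RA arrays lay above all 4 untreated arrays for 6 members, and for 15.2% of all gene names. In bulk RNA a larger number of cells of a type and more RNA in each cell cannot be told apart.

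**Figure D1:**
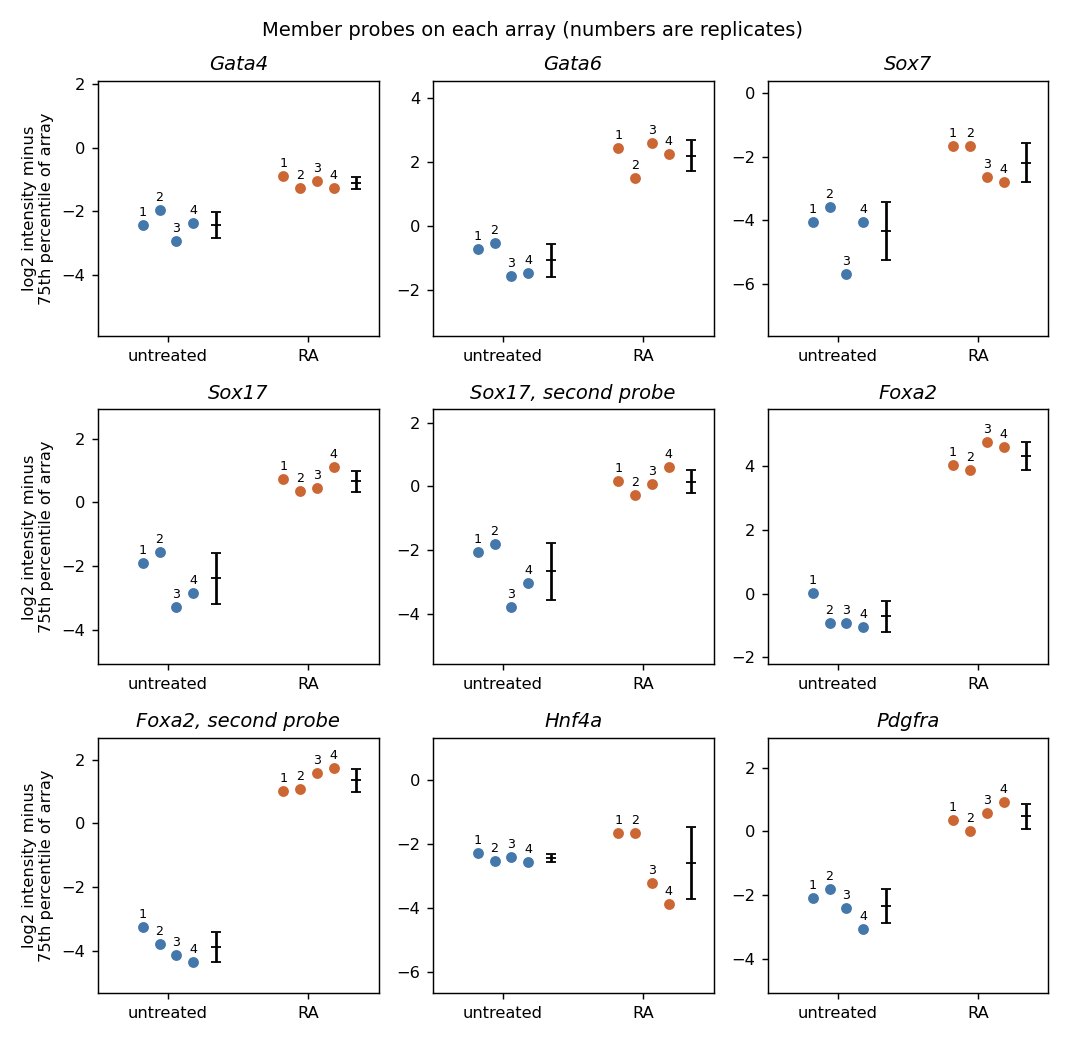
Level of every member probe on each array, as log2 intensity minus the 75th percentile of the array (vertical axis, 8 units in each panel). Points are arrays with their replicate number, blue for untreated and orange for RA, and the black bar is the mean ± SD of 4 arrays. The points of both conditions are apart in every panel but that of Hnf4a, where RA 1 and RA 2 sit above and RA 3 and RA 4 below the untreated arrays.

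Upstream sequence was available for 3 members, *Foxa2*, *Hnf4a* and *Pdgfra*, among the promoters of RefSeq (GRCm38.p6). *Gata4*, *Gata6*, *Sox7* and *Sox17* are named only. The 250 bases before the transcription start are shown for reference: *Foxa2* rose most, *Pdgfra* rose, and *Hnf4a* was not called. On both strands 3 motifs were searched. The GATA word was AGATAA with the variant TGATAA, the variant AGATAG and the variant TGATAG. The FOXA word was TGTTTAC with the variant TATTTAC, and the retinoid half-site was AGGTCA. Capitals mark a match, and no printed match overlaps another. Of the 3 *Foxa2* starts and the 2 *Hnf4a* starts in RefSeq, the printed one was picked because it is the only one with a match.
Foxa2, chr2:148045465-148045714, minus strand: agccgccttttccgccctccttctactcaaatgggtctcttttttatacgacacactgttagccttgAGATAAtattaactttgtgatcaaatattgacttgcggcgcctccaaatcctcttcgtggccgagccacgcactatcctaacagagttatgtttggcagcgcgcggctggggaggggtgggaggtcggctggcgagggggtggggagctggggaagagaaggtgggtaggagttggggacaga
Hnf4a, chr2:163506607-163506856, plus strand: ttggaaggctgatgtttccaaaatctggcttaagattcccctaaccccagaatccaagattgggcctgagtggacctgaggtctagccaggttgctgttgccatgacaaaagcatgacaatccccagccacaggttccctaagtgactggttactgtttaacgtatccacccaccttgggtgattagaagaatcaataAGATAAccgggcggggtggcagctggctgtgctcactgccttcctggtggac
Pdgfra, chr5:75152001-75152250, plus strand: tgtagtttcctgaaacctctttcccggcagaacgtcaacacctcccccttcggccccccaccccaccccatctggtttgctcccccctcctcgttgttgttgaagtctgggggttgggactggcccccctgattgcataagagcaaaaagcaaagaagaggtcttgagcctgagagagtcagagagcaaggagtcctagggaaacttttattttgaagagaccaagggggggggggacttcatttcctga

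Over all starts, 1 of 3 *Foxa2* windows and 1 of 2 *Hnf4a* windows held a GATA word, AGATAA in both, and the *Pdgfra* window held none of the 3 motifs. Of all 32851 windows of this length, 26.5% held a GATA word, 5.76% a FOXA word and 14.02% a retinoid half-site. Nothing about the members is read from these few windows.

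*Gata6*, the zinc finger factor at the head of the primitive endoderm programme (NM_010258), was measured by 1 probe. Its levels were -0.74, -0.55, -1.57 and -1.47 on untreated arrays 1 to 4 and 2.43, 1.51, 2.61 and 2.25 on RA arrays 1 to 4. The RA arrays were high throughout, and the lowest of them, RA 2, was still clear of every untreated array. *Gata6* rose 9.71-fold (log2 fold change 3.28 ± 0.31 SE, limma adjusted p = 6.79e-05, n = 4 per condition), and 1.78% of all gene names had a larger log2 fold change.

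*Gata4*, its paralog and a later marker of the same cells (NM_008092, probe at chromosome 14, 63817858 to 63817917 in mm9), had levels of -2.43, -1.97, -2.94 and -2.36 on untreated arrays 1 to 4. On RA arrays 1 to 4 it had -0.88, -1.26, -1.06 and -1.27. The RA arrays lay close together, with an SD of 0.18 against 0.40 for the untreated arrays, and did not overlap with them. *Gata4* rose 2.47-fold (log2 fold change 1.31 ± 0.22 SE, limma adjusted p = 0.00141), the smallest of the 6 rises.

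The difference between both GATA factors was tested on each array as the *Gata6* value minus the *Gata4* value, which is read only as a difference of response. It was 0.89 to 1.70 on the untreated arrays and 2.76 to 3.66 on the RA arrays, with no overlap. *Gata6* thus changed by 1.97 log2 units more than *Gata4* (means 1.34 ± 0.33 and 3.32 ± 0.40, SD, n = 4), with p = 0.0286 in a two-sided exact permutation test, the smallest that 70 splits allow. Adjusted over the 2 pairs of paralogs compared, p was 0.0571, above the threshold. It was 0.0286 with normexp background correction and on the authors' values, because the p of the other pair fell to the floor there. The unadjusted p of *Gata6* minus *Gata4* was at its floor already, so the lower adjusted p says nothing more about this pair. The permutation test exchanges arrays freely, and an exact sign-flip over the 4 same-numbered pairs gave p = 0.125, the smallest that 16 flips allow.

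*Sox17*, the SOX factor that follows *Gata6* in primitive endoderm and also marks definitive endoderm (NM_011441), was measured by 2 probes on chromosome 1, the brighter at 4481503 to 4481562 and the other at 4481038 to 4481097 (mm9). The brighter probe read -1.89, -1.55, -3.27 and -2.84 on untreated arrays 1 to 4 and 0.73, 0.37, 0.45 and 1.10 on RA arrays 1 to 4. The RA arrays were high and lay closer together (SD 0.33) than the untreated arrays (SD 0.80), of which untreated 3 was the lowest. *Sox17* rose 8.27-fold by this probe (log2 fold change 3.05 ± 0.38 SE, limma adjusted p = 0.00028) and 7.02-fold by the other (2.81 ± 0.42 SE, limma adjusted p = 0.000822), so the 2 probes gave the same direction and call.

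*Sox7*, a SOX factor of the same F subgroup found in parietal endoderm (NM_011446, probe at chromosome 14, 64569419 to 64569478 in mm9), was dim before RA, passing the background test on 3 of the 4 untreated arrays. Its levels were -4.06, -3.59, -5.68 and -4.05 on untreated arrays 1 to 4 and -1.67, -1.66, -2.64 and -2.80 on RA arrays 1 to 4. Untreated 3 was low, and RA 1 and RA 2 were higher than RA 3 and RA 4, but no arrays of the 2 conditions overlapped. *Sox7* rose 4.44-fold (log2 fold change 2.15 ± 0.47 SE, limma adjusted p = 0.00647). With normexp background correction, which compresses dim probes, the log2 fold change was 1.25 and the call stayed.

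The *Sox17* minus *Sox7* difference was 1.21 to 2.41 on the untreated arrays and 2.03 to 3.90 on the RA arrays, and the ranges overlapped. *Sox17* changed by 0.90 log2 units more than *Sox7*, with p = 0.20 in the exact permutation test and 0.20 after adjustment on these values. With normexp background correction (1.33) and on the authors' values (1.24) the adjusted p was 0.0286, so the call depends on the processing, and *Sox7* was not well above background on 1 untreated array.

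*Foxa2*, the forkhead factor of visceral and definitive endoderm (NM_010446), gave the largest change of the 7. Its 2 probes overlapped on chromosome 2, the brighter at 147868669 to 147868728 and the other at 147868614 to 147868673 (mm9). The brighter probe read 0.01, -0.91, -0.91 and -1.04 on untreated arrays 1 to 4 and 4.04, 3.87, 4.75 and 4.61 on RA arrays 1 to 4. Untreated 1 stood above the other untreated arrays, and every RA array was far above all of them. *Foxa2* rose 32.8-fold by the brighter probe (log2 fold change 5.03 ± 0.29 SE, limma adjusted p = 6.42e-06) and 37.5-fold by the other (5.23 ± 0.27 SE, limma adjusted p = 4.26e-06). The other probe gave 17.9-fold with normexp background correction and 19.3-fold on the authors' values, with the call kept. Of all gene names 154, or 0.423%, had a larger log2 fold change.

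*Pdgfra*, the PDGF receptor carried by primitive endoderm cells and by mesenchyme (NM_011058, probe at chromosome 5, 75593888 to 75593947 in mm9, printed 10 times on the array), had levels of -2.11, -1.82, -2.42 and -3.06 on untreated arrays 1 to 4. On RA arrays 1 to 4 it had 0.37, 0.01, 0.58 and 0.91. The RA arrays again lay above all untreated arrays, of which untreated 4 was the lowest. *Pdgfra* rose 7.05-fold (log2 fold change 2.82 ± 0.29 SE, limma adjusted p = 0.000109).

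*Hnf4a*, the nuclear receptor that drives the visceral endoderm and liver secretory genes (NM_008261, probe at chromosome 2, 163398548 to 163398607 in mm9), was the exception. Its levels were -2.28, -2.52, -2.40 and -2.56 on untreated arrays 1 to 4 and -1.65, -1.65, -3.22 and -3.87 on RA arrays 1 to 4. RA 1 and RA 2 lay above every untreated array and RA 3 and RA 4 below every one, so the RA mean hid arrays on both sides. The log2 fold change was -0.16 ± 0.48 SE (95% interval -1.26 to 0.95, limma adjusted p = 0.807), an interval that leaves room for both a 2-fold fall and a rise of nearly that size. The SD was 0.13 among untreated arrays and 1.13 among RA arrays. Of the 20388 genes well above background on all 8 arrays, 90.3% had a larger SD among the untreated arrays and 0.51% a larger SD among the RA arrays.

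*Sox7* showed a like split of the RA arrays and the other members did not. Relative to the RA mean, *Hnf4a* was at 0.95, 0.95, -0.62 and -1.27 on RA 1 to 4, and *Sox7* at 0.52, 0.53, -0.44 and -0.61. *Foxa2* went the other way, at -0.28, -0.45, 0.44 and 0.29, as did *Pdgfra*, at -0.10, -0.46, 0.11 and 0.45. *Gata6* was low on RA 2 alone (-0.69), and *Gata4* moved by at most 0.23. Beside these, the median RA response gene was at -0.52, -0.72, 0.87 and 0.51, and the median pluripotency marker at 0.07, 1.27, -0.26 and -0.93. Of the 15 list medians, 7 were above their RA mean on RA 1 and RA 2 and below it on RA 3 and RA 4, the visceral endoderm (0.25, 0.12, -0.01 and -0.17) and basement membrane (0.26, 0.11, -0.19 and -0.17) lists among them, and 2 ran the opposite way. The 2 slides did not follow this split, since RA 1 and RA 4 were on the first slide and RA 2 and RA 3 on the second. The part of these differences in the *Hnf4a* value was not tested.

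Among the untreated arrays, 4 members were lowest on untreated 3: *Gata4* at -0.51, *Gata6* at -0.49, *Sox7* at -1.34 and *Sox17* at -0.88 from their untreated means. Untreated 2 was the highest for *Gata4* (0.46), *Gata6* (0.53), *Sox7* (0.76), *Sox17* (0.84) and *Pdgfra* (0.53). The 75th percentile used for scaling was 1024 intensity units on untreated 3 and 741 to 860 on the other untreated arrays, and its part in these differences was not tested. Low values on untreated 3 were not limited to the members, with 9 of 15 list medians below their untreated mean there and 6 above. The median gene was at -0.46 there in the RA response list, -0.39 in the FGF and ERK list, -0.38 in the PDGF list, -0.26 in the basement membrane list and -0.20 among the pluripotency markers, against 0.48 in the parietal endoderm list.

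**Figure D2:**
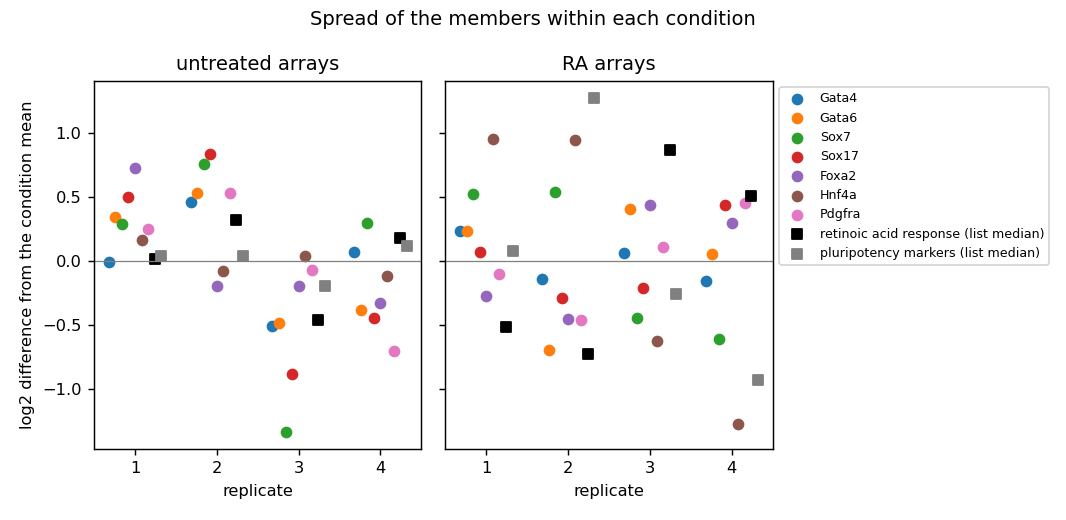
Difference of each member from the mean of its own condition on each array (vertical axis, log2 units), untreated arrays on the left and RA arrays on the right. Circles are members and squares are medians of the RA response and pluripotency lists. Hnf4a ranges from 0.95 to -1.27 on the RA arrays, and Sox7 reaches -1.34 on untreated 3.

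The rises were seen on each slide, which carried 2 arrays of each condition. On the first slide alone the log2 fold change was 1.61 for *Gata4*, 3.49 for *Gata6*, 2.63 for *Sox7* and 3.50 for *Sox17*. It was 4.78 for *Foxa2*, 2.90 for *Pdgfra* and -0.42 for *Hnf4a*. On the second slide it was 1.01 for *Gata4*, 3.07 for *Gata6*, 1.67 for *Sox7* and 2.60 for *Sox17*. There it was 5.29 for *Foxa2*, 2.73 for *Pdgfra* and 0.11 for *Hnf4a*, so the sign of *Hnf4a* turned between slides.

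**Figure D3:**
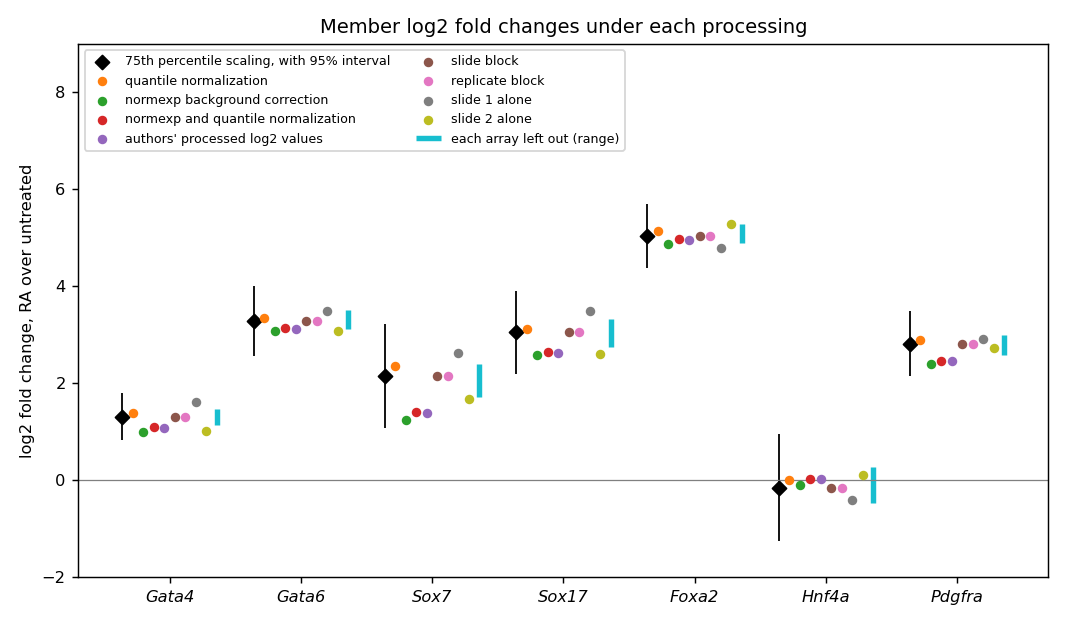
Log2 fold change of each member (vertical axis, RA over untreated) under each processing. The black diamond with its 95% interval is the value of the text, coloured points are other normalizations, blocks and single slides, and the bar spans the values with each array left out. The other members stay above 0 throughout, and Hnf4a lies on both sides of 0.

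Profiles over the 8 arrays, each centred on its own mean, were compared by their root mean square (RMS) difference, which mostly reads the step between the conditions. *Gata6*, *Sox17* and *Pdgfra* were the most alike, at 0.37 for *Gata6* and *Sox17* and 0.38 for *Pdgfra* with either. *Foxa2* and *Hnf4a* were the farthest apart, at 2.77. Outside the members, *Gata6* was nearest to *8430427H17Rik* (0.19), *Mex3b* (0.24) and the brighter probe of the FGF receptor *Fgfr3* (0.29). *Foxa2* was nearest to *Dach1* (0.29), *Fbn2* (0.29) and *Meis2* (0.33). The named genes nearest to *Gata4* were *Ugdh* (0.11), *1700019E19Rik* (0.13) and *Ttc12* (0.13), and those nearest to *Pdgfra* were *Zmat1* (0.16), *Wdr78* (0.17) and *Hist3h2a* (0.23). *Whsc1* (0.27) was nearest to *Sox17* among probes with a gene symbol. *Sox7*, not well above background on all 8 arrays, was left out.

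The close relatives of the members did not all follow them. Of 8 genes of the GATA, SOX, FOXA and HNF4 families, 3 rose, 2 fell and 3 were not called, with a median log2 fold change of -0.13 against 2.82 for the members and -0.28 for all genes. *Gata3*, a factor of trophoblast and other lineages, rose by 4.33 ± 0.34 SE in log2 units (limma adjusted p = 2.61e-05), from between -1.97 and -0.45 on the untreated arrays to between 2.46 and 3.40 on the RA arrays. *Foxa1* rose by 4.28 ± 0.34 and *Gata2* by 3.19 ± 0.28. *Gata1*, the erythroid factor, fell by 1.60, and *Foxa3*, a liver and gut factor, fell by 1.40. *Gata5* (0.30 ± 0.26 SE) and *Sox18* (-0.70 ± 0.31 SE) were not called, and *Hnf4g* was not well above background on any array.

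The 12 further transcription factors used in endoderm gave 2 rises and 7 falls, 1 of the falls being *Mixl1*, which was not well above background on any array. *Nr2f2*, an orphan nuclear receptor, rose by 6.94 ± 0.35. *Otx2*, of epiblast and anterior visceral endoderm, fell by 6.49, *Klf5* fell by 2.44, *Gsc* fell by 1.95 and *Hhex* fell by 0.63. With normexp background correction *Hhex* (-0.57) was not called, and 1 of the 12 was called higher.

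Of 19 genes of the FGF and ERK signal, 5 rose, 5 fell and 9 were not called. *Fgf4*, the ligand that ES cells secrete, fell by 6.08, and *Etv4* and *Etv5*, transcription factors induced by the signal, fell by 4.88 and fell by 3.49. The receptors *Fgfr3* (3.58 ± 0.22) and *Fgfr2* (1.62 ± 0.24) and the ligand *Fgf5* (3.52 ± 0.43) rose. A dimmer *Fgfr3* probe gave a much smaller rise, 0.93 ± 0.16, and a dimmer *Fgfr2* probe gave 2.04 ± 0.32, both called higher.

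The partners of *Pdgfra* were mixed. The receptor *Pdgfrb* rose by 2.66 ± 0.25, and the ligand *Pdgfd*, not well above background on any untreated array, was at least 2.17-fold higher after RA. Such a bound sets the mean of the RA arrays against the lowest signal well above background on each untreated array, and holds for the scanner's processed signal only, since normexp with its offset gave smaller folds for dim probes, such as 1.47 for *Pdgfd*. The ligands *Pdgfa* (-0.30 ± 0.16 SE), *Pdgfb* (-0.49 ± 0.25 SE) and *Pdgfc* (0.52 ± 0.31 SE) were not called. With normexp background correction *Pdgfd* was not called, and 1 of the 5 genes was called higher.

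The products of endoderm cells were read from 3 lists. Of 14 basement membrane genes and uptake receptors, 10 rose and 2 fell. The collagen IV chains *Col4a2* (4.02 ± 0.28) and *Col4a1* (3.79 ± 0.26) and the endocytic adaptor *Dab2* (3.82 ± 0.38) rose most, whereas the nidogens *Nid2* and *Nid1* fell by 1.55 and fell by 1.42. Of 12 parietal endoderm genes, 9 rose and none fell, led by the keratins *Krt8* (5.63 ± 0.27) and *Krt19* (5.56 ± 0.31) and by *Plat* (5.29 ± 0.36), tissue plasminogen activator. Epithelia other than parietal endoderm also express these keratins.

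Of 22 visceral endoderm genes, targets of HNF4A among them, 9 rose and 8 fell. The ligand *Bmp2* rose by 7.27 ± 0.38 and the secreted carrier *Afp* by 6.18 ± 0.77, each well above background on 1 of 4 untreated arrays, so that their sizes rest on dim values: with normexp the log2 fold changes were 5.23 and 3.89. *Ttr*, the thyroid hormone carrier, was not well above background on any untreated array and was at least 37.3-fold higher after RA on the processed signal, against 11.2-fold with normexp and 11.9-fold on the authors' values. *Lefty1* fell by 5.71, and the apolipoprotein *Apoe* fell by 2.08. *Apoc2*, well above background on 2 of 4 RA arrays, had a log2 fold change of -2.08, and of -1.02 with normexp. *Apoa1* and *Apoa4* were not well above background on any array. The count of falls was 3 with quantile normalization and 4 on the authors' processed values.

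Markers of several other tissues, those in which the members also act among them, moved as well. All 8 mesenchyme markers rose, among them *Col3a1* (7.05 ± 0.33, or 5.18 with normexp), *Col1a1* (5.20 ± 0.72, or 4.30 with normexp) and *Prrx1*. *Prrx1* was not well above background in untreated cells and was at least 4.90-fold higher on the processed signal and 2.58-fold with normexp. The summed level of the mesenchyme markers, in multiples of the 75th percentile and weighted to the brightest probes, was 0.388 to 0.628 on untreated arrays and 7.98 to 17.3 on RA arrays. Of 10 heart markers 6 rose, *Hand2* at least 55.9-fold on the processed signal (16.1-fold with normexp). *Hand1* rose by 4.35 ± 0.51 (2.98 with normexp) and *Tnnt2* by 3.54 ± 0.34 (2.26 with normexp). The summed level of the heart markers was 3.61 to 4.70 untreated and 8.08 to 13.1 after RA. *Mef2c* was not well above background on any array.

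Of 9 neural and floor plate markers 2 rose, *Nes* by 2.10 ± 0.16 and *Shh*, a floor plate ligand that was at least 19.1-fold higher on the processed signal and 6.52-fold with normexp. *Tubb3* fell by 2.22 and *Nkx2-2* fell by 0.71, the latter not called after quantile normalization (-0.51) or normexp (-0.47), and the summed level was 6.23 to 9.83 untreated and 10.9 to 12.2 after RA. *Nes* set that rise, as the sum without it was 4.53 to 7.85 untreated and 2.40 to 2.63 after RA. Of 9 definitive endoderm markers 2 rose, *Foxa1* and *Cxcr4* (1.59 ± 0.30), and 3 fell, while *T*, the mesendoderm factor, was not called (-0.78 ± 0.38 SE). With normexp background correction *Cxcr4* (0.35) was not called, and 1 marker was higher and 1 lower. The summed level of that list was 2.10 to 2.67 untreated and 10.1 to 19.1 after RA, which *Foxa1* set, since without it the sum was 1.66 to 1.87 untreated and 1.06 to 3.80 after RA. *Mixl1* was not well above background on any array.

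Of 7 trophoblast markers 4 rose, *Krt7* (5.84 ± 0.46), *Hand1*, *Cdx2* (3.02 ± 0.32) and *Elf5*, and *Tcfap2c* fell by 2.26. *Elf5* was not well above background on any untreated array, was at least 2.70-fold higher on the processed signal, and lost its call with normexp, where 3 of the markers were higher. Their summed level was 25.6 to 33.0 untreated and 14.5 to 26.0 after RA, but 4.16 to 5.52 and 12.1 to 19.6 without *Tcfap2c*, the brightest probe of the list on the untreated arrays, with *Tpbpa* not well above background on any array. No endothelial marker of 9 rose and 3 fell, *Etv2* by 3.56, *Pecam1* by 2.96 and *Tek* by 2.90, and *Cdh5*, *Erg* and *Emcn* were not well above background on any array. Their summed level was 4.37 to 6.46 untreated and 1.92 to 2.69 after RA, and 2.54 to 4.59 and 0.348 to 0.651 without *Kdr*, which was not called. The part of any of these cell types in the rises of the members was not tested.

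**Figure D4:**
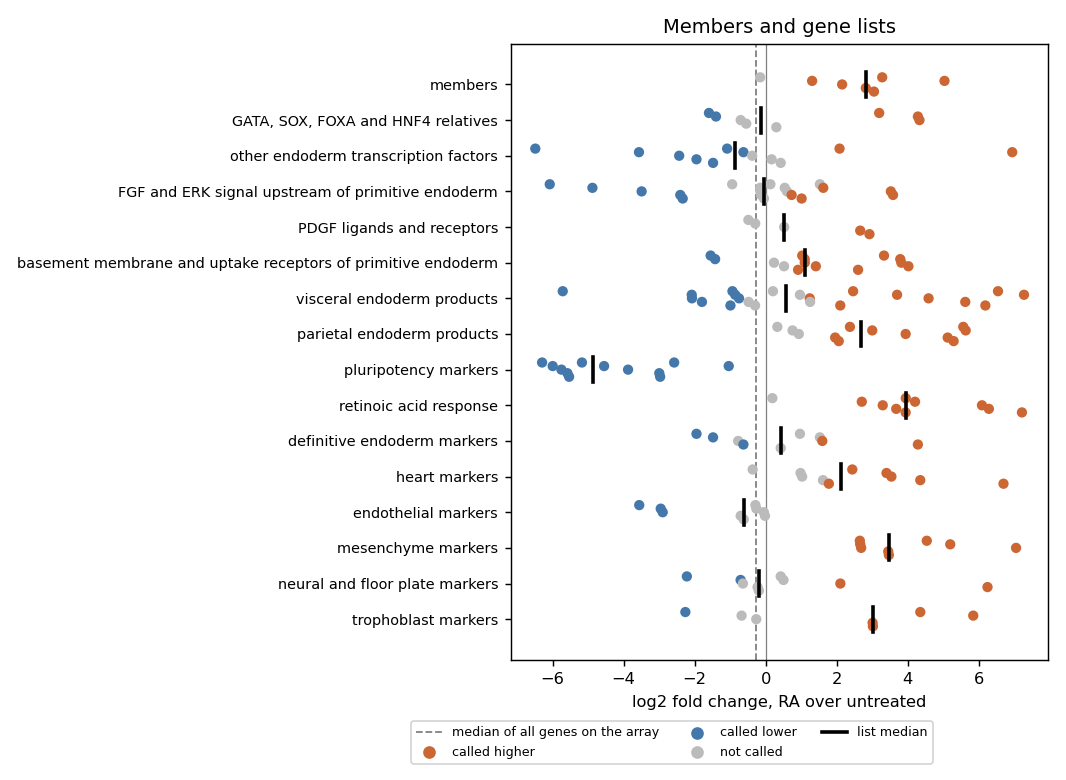
Log2 fold change (horizontal axis, RA over untreated) of the 7 members and of every gene of the 15 lists, 1 point per gene. Orange genes were called higher, blue lower and grey not called, the black bar is the median of the list, and the dashed line at -0.28 is the median of all genes. The member median lies at 2.82. The highest list medians are those of the RA response (3.94), mesenchyme (3.46), trophoblast (3.01), parietal endoderm (2.69) and heart (2.11) lists.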

How the data were processed

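Expression was measured on 8 Agilent 1-colour arrays, 4 untreated and 4 RA, on 2 slides that held 2 arrays of each condition. The authors deposited Feature Extraction (10.7.3.1) files, in which the processed intensity is background-subtracted on a linear scale, and a table of processed log2 values, whose median change was near 0 (-0.01) and which served as an alternative. Per the file headers the build was mm9. Control spots (3671) and outlier-flagged spots were left out. From the intensity, log2 values minus the 75th percentile of each array were computed, spots of a probe were averaged, and limma (3.58.1, R 4.3.3) compared RA with untreated over 55681 probes. Where a gene had several probes the one with the highest mean was used. The exon or UTR that each probe reads is not given in the sources used here.

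A probe was well above background when over 50% of its spots were marked so by the scanner software. On simulated arrays with 200 probes changed by 2 log2 units, 153 were recovered and 11 of the unchanged probes were called. A far smaller share of probes was changed there than was called in these data, so neither count carries over to them. Same-numbered arrays deviated together (correlations 0.186, 0.189, 0.104 and 0.151 over 27491 probes, the highest between different numbers being 0.142, which replicate 3 did not exceed), which was read as pairing because all 4 were over 0.1, and a fit with the number as a block is an alternative. The other alternatives were quantile normalization, normexp background correction (offset 50), a filter on dim probes, the slide as a block, a 2-fold threshold, the mean of all probes of a gene, and each array left out.

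The members and the gene lists were chosen with earlier results of these data known. Named genes were all members, all family relatives and PDGF genes, and of every other list the 3 called genes with the highest and the 3 with the lowest log2 fold change among those well above background on all 4 arrays of a condition. *Elf5*, *Kdr*, *Mixl1*, *T* and the genes at background were named outside this rule, after their values were seen, and a few genes that the rule picked are not reported here. Tcfap2c and Tcfcp2l1 are the array's names of *Tfap2c* and *Tfcp2l1*, matched through RefSeq synonyms. The number of arrays limits the precision.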

Additional observations from a re-analysis of the deposited data

Results flagged for a closer look

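A single array stood apart in 7 of the 144 sets of 4 arrays examined (72 probes of members and named genes in 2 conditions), where chance flags about 1 in 20 sets, or 7.2. Among the members it was *Foxa2* on untreated 1, at 0.00905 against -1.04 to -0.91 on the other untreated arrays. Its second, overlapping probe did not stand apart there. The others were *Klf5* on untreated 4 at 4.67 (others 4.21 to 4.27), *Pdgfrb* on untreated 2 at -2.46 (others -3.27 to -3.17) and *Col4a2* on RA 1 at 3.54 (others 3.26 to 3.31). *Ttr* on RA 2 was at -1.40 (others 0.15 to 0.22), *Cxcr4* on untreated 4 at -6.43 (others -5.45 to -5.29) and *Cdx2* on untreated 1 at -3.26 (others -3.80 to -3.74).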

How the results depend on the processing

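The 6 rises kept their direction and call under every alternative with a test, their largest adjusted p being 0.0201 (*Sox7*, with an array left out), and the count of members called was 6 higher and 0 lower throughout, also at 2-fold. *Hnf4a* was not called under any, but its sign turned: it was 0.0175 on the values the authors processed, 0.0186 when normexp was followed by quantile normalization, and -0.47 to 0.27 with each array left out, positive without RA 3 or RA 4. The count of probes called lower, 12044, was 6583 on the authors' values and 6603 when quantile normalization followed normexp. The *Sox17* minus *Sox7* difference passed the threshold with normexp (1.33) and on the authors' values (1.24), both with adjusted p = 0.0286 in the permutation test. The *Gata6* minus *Gata4* difference (2.08 and 2.04) then had the same adjusted p. That came only from the lower p of the other pair, its own p being at the floor already. With each array left out the *Gata6* minus *Gata4* difference was 1.82 to 2.16 and the *Sox17* minus *Sox7* difference 0.55 to 1.17. The replicate block (pairing by number) called 7223 probes higher and 12161 lower and changed no member's call, with 69 list genes higher and 42 lower against 67 and 42; only the neural and floor plate falls, from 2 to 1, moved by over 1.5 times. With a sign-flip over pairs, added after seeing the data, neither difference of response can pass (p at least 0.125 in the exact test). With normexp 29 of the 63 named list genes had folds smaller by over 1.5 times, none with a turned sign. The dim signal of *Sox7* in untreated cells limits its fold.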
